A study of Mus musculus with 15 samples.

Results

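Negative regulators of T cell receptor (TCR) signalling are proteins that keep the signal from the antigen receptor weak, short or both. Followed here were 10 such genes, chosen by name from the 48795 genes listed: the adaptors Dok1, Dok2 and Sla, the receptor Cd5, the phosphatases Ptpn22, Ptpn6 and Ubash3a, the ubiquitin ligase Cblb and the lipid kinases Dgka and Dgkz. They were measured by RNA sequencing of bulk invariant natural killer T (iNKT) cells sorted from wild-type C57BL/6 mice aged 6 weeks. The cells bound a CD1d tetramer, carried TCRb, and lacked B220, CD11b, CD11c and CD8. They came from thymus (n = 4), spleen (n = 4), mesenteric lymph nodes (mLN, n = 4) and inguinal lymph nodes (iLN, n = 3, replicates 2 to 4). Lymph nodes (LN) were digested with collagenase and the other organs were only pressed through a strainer. Where LN are compared with spleen or thymus, tissue and preparation therefore cannot be told apart. The stated preparation was the same for thymus and spleen, and the same for mLN and iLN. Each sample carries a unit label equal to its replicate number, and the study compared clonotypes of its RNA sequencing samples between tissues with a paired test. The labels do not say whether a replicate was 1 mouse or a pool, nor whether samples of the same number in different tissues came from the same animals, and the p-values measure the spread between these samples. Replicates 1 and 2 belonged to the second sample batch (7 samples, 1 of them iLN), and replicates 3 and 4 to the first (8 samples).

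When a TCR binds its ligand, Lck and related kinases phosphorylate the receptor chains, Zap70 is recruited, and the adaptor Lat passes the signal on to calcium, diacylglycerol and Ras. Each step has its brake: phosphatases remove the phosphates, adaptors bring inhibitors to the membrane, ligases mark signalling proteins for degradation, and diacylglycerol kinases consume the lipid messenger. iNKT cells carry a semi-invariant TCR that recognises lipids on CD1d, are selected in the thymus by strong TCR signals, and fall into functional subsets, NKT1 and NKT2 among them.

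The total expected count per sample, the sum over genes of reads assigned to each, ran from 1152702 to 8161474 in thymus, from 4919511 to 8670570 in spleen, from 4740370 to 7914302 in mLN and from 4080550 to 5360793 in iLN. Thymus replicate 2 had the lowest total. All 10 members were found and passed the filter on low counts, as did 13600 genes in all. Dok1 rested on the fewest reads, from 4 to 90 counts per sample, followed by Ubash3a with 27 to 255 and by Dok2 and Cd5, each with a lowest sample of 64 counts. Pearson correlations of log2 CPM (counts scaled to a common library size) between replicates were 0.877 to 0.958 in thymus, 0.873 to 0.952 in spleen, 0.835 to 0.929 in mLN and 0.845 to 0.855 in iLN.

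The sorted populations carried iNKT transcripts in every sample. The 6 identity genes (Zbtb16, Cd3e, Trbc1, Trbc2, Cd44 and Il2rb, the most abundant being Trbc2) summed, in the length-corrected unit TPM, to 3830, 5530, 3460 and 3770 in thymus, 4190, 4920, 3460 and 4580 in spleen, 4230, 5420, 4870 and 5520 in mLN and 5390, 3380 and 4590 in iLN. These sums overlapped between all 4 tissues, though Zbtb16 rose (log2 fold change 0.71) and Il2rb fell (log2 fold change -0.63) in LN against spleen and thymus. Subset markers differed between tissues. The 5 NKT1 genes (Tbx21, Klrb1c, Klrd1, Ifng and Xcl1, the most abundant being Xcl1) summed to 944, 1140, 818 and 886 TPM in thymus, 544, 607, 559 and 729 in spleen, 316, 379, 317 and 505 in mLN and 306, 229 and 380 in iLN. NKT1 sums were thus highest in thymus and lowest in LN, with no LN sample reaching a spleen sample, and 4 of the 5 genes (all but Ifng) fell in LN against spleen and thymus. Klrd1 rose in thymus against spleen. The 5 NKT2 genes, of which Ccr4 was the most abundant and the only gene called, higher in LN, summed to 93.9 to 190 TPM in thymus, 103 to 158 in spleen, 186 to 263 in mLN and 151 to 206 in iLN. The 5 genes of a further subset, NKT17, summed to 2.53 to 13.6 TPM in thymus and 1.86 to 16.2 in spleen. Their sums were 11.7 to 48.7 TPM in mLN and 107 to 292 in iLN, and 4 of the 5 were called higher in LN.

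**Figure D1:**
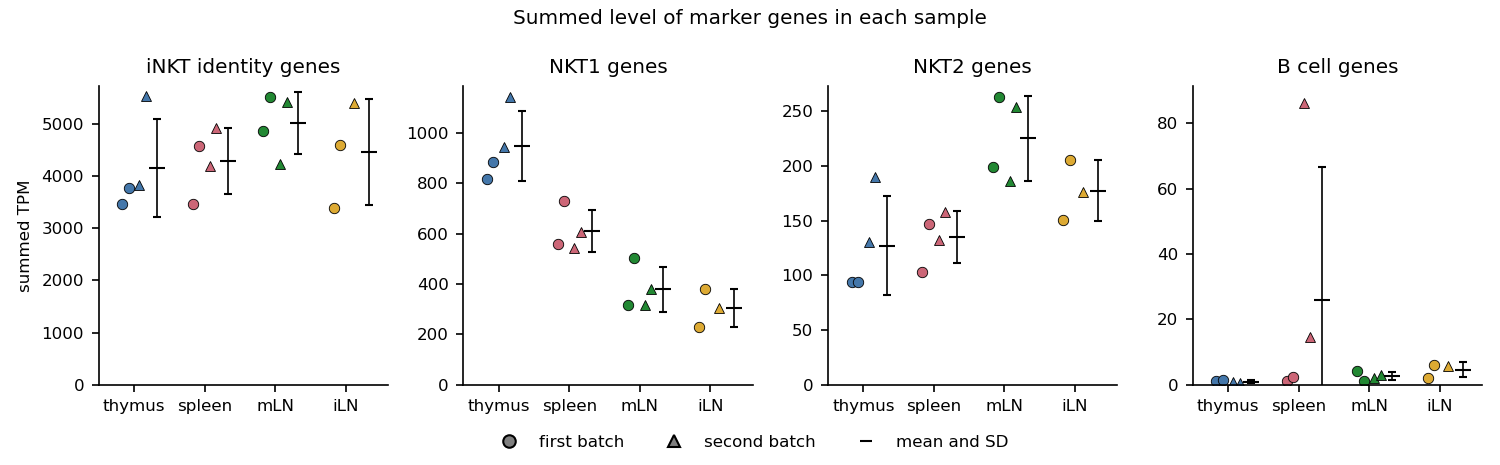
Summed TPM of the iNKT identity, NKT1, NKT2 and B cell marker lists in each of the 15 samples, by tissue, with the mean and SD as bars; the lower B cell bar of spleen ends at the axis. NKT1 sums were 818 to 1140 in thymus and 229 to 380 in iLN, and the B cell sum of spleen replicate 1 was 86.3.

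Markers of other cells differed in single libraries for some lists and between whole tissues for others. The 6 B cell genes, 3 of which were tested and of which Ms4a1 was the most abundant, summed to 86.3 TPM in spleen replicate 1, 14.5 in spleen replicate 2 and 0.56 to 6.09 elsewhere. The 6 genes of CD8 cells and immature thymocytes, most abundant Cd8b1, summed to 39.7 TPM in thymus replicate 2 and to 2.22 to 11.7 elsewhere, and Rag1 rose in thymus against spleen. The 5 erythroid genes, most abundant Hbb-bs, summed to 68 to 340 TPM in spleen, 3.72 to 66 in thymus, 1.24 to 3.9 in mLN and 2.29 to 16.8 in iLN, with Hbb-bs and Hbb-bt lower in LN. Myeloid genes (6, of which 3 were tested, most abundant Cst3) summed to 24.1 to 107 TPM. Natural killer cell genes (4, of which 1 was tested, most abundant Klra8) summed to 3.02 to 4.62 TPM in thymus and 0.34 to 1.92 in spleen. Their sums were 0.05 to 0.83 TPM in mLN and 0 to 3.63 in iLN. In neither list was a gene called in LN against spleen and thymus, while the myeloid gene Lyz2 fell in thymus against spleen. Regulatory T cell genes (3, most abundant Ikzf2) summed to 30.5 to 47.2 TPM in thymus, 63.7 to 132 in spleen, 68.4 to 113 in mLN and 111 to 215 in iLN. Among them, Il2ra rose in LN against spleen and thymus and fell in thymus against spleen (log2 fold change -3.58), while mLN against spleen had a log2 fold change of -0.32 (adjusted p = 0.632) and iLN against spleen 0.91 (adjusted p = 0.0381), neither of them called. No gene of these lists was at 0 in all 15 samples. The part of any of these cells in the results on the members was not tested. In bulk samples, fewer cells of a type and less RNA per cell cannot be told apart.

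TPM puts the members in an order of level. Over the 15 samples Ptpn22 had the highest mean TPM (176, SD 66.9), followed by Sla (129.5, SD 35.9) and Ptpn6 (87.1, SD 52.2). Dgkz (69.1, SD 27.6), Dgka (68.9, SD 34.8), Cblb (58.8, SD 15.1), Cd5 (48.6, SD 17.3) and Dok2 (43.6, SD 17.1) formed a middle group whose neighbours differed by less than their SD. Ubash3a (16.5, SD 9.19) and Dok1 (3.41, SD 1.88) had the lowest mean TPM. Among the 13600 genes tested, Ptpn22 ranked 440 and Dok1 10586 by mean TPM. The order moved between tissues: Ptpn22 led in thymus, spleen and mLN and Sla in iLN, Ptpn6 stood second in thymus and seventh in mLN, and Ubash3a and Dok1 came last in all 4.

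**Figure D2:**
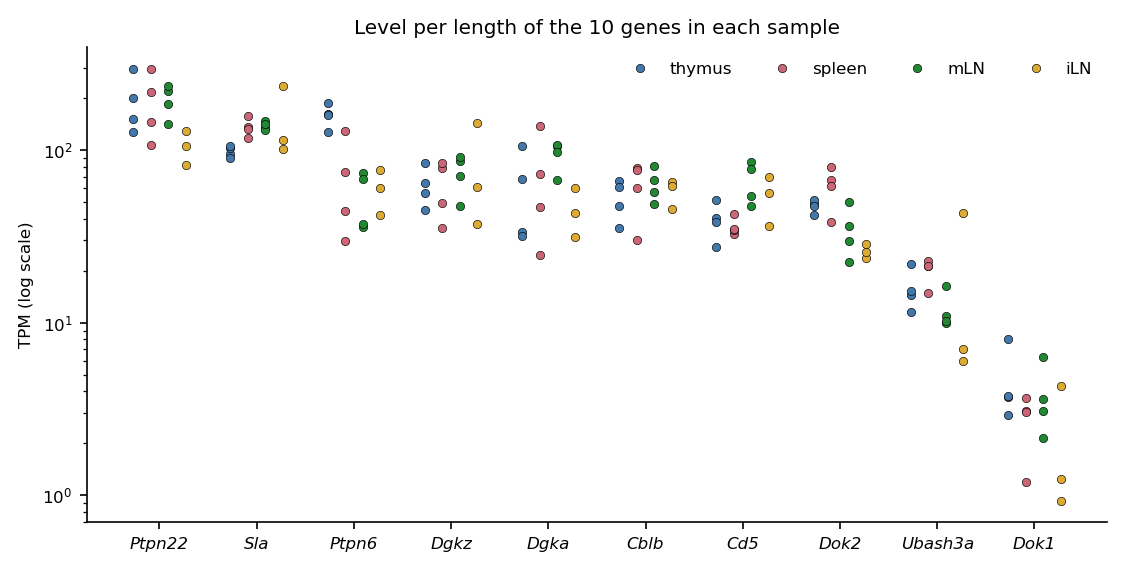
TPM of each member in each of the 15 samples on a log axis, coloured by tissue. Mean TPM ran from 176 for Ptpn22 to 3.41 for Dok1.

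Differences between tissues were tested on counts with a model of tissue and batch, and a gene was called when its adjusted p was under 0.01 and its fold change over 1.5. Both LN sites, averaged, against spleen and thymus, averaged, asked what separates LN iNKT cells from the others: 1 of 10 members was called, Dok2, lower in LN, where 1.72% of all genes tested were called. The study's own text names Dok2 and Ptpn22 as lower in LN, so that these directions are not independent evidence. Ptpn22 was not called here in LN against spleen and thymus (log2 fold change -0.37, adjusted p = 0.0473). Its called falls were those of iLN, not mLN. Thymus against spleen called 1 member, Ptpn6, higher in thymus (1.32% of all genes). iLN against spleen called 1, Ptpn22, lower in iLN (1.55%). mLN against thymus called 1, Ptpn6, lower in mLN (1.6%). iLN against thymus called 2, Ptpn22 and Ptpn6, lower in iLN (1.5%). The test over 4 tissues together, which has no fold threshold, called 2, Ptpn22 and Ptpn6 (3.38%). With 10 members, 1 call is 10% of the list, and nothing particular to the list is read from these counts.

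edgeR called 0 of 10 members in mLN against spleen, where it called 0.654% of all genes. There, 4 members (Dok2, Dgka, Cd5 and Ubash3a) had an unadjusted p under 0.05, as did 12.2% of all genes, DESeq2 called 1 (Cd5) among 266 of all genes, against 89 by edgeR, and limma on log2 TPM called 0. edgeR called 0 of 10 in iLN against mLN (0.471% of all genes). There, 2 members (Ptpn22 and Dgka) had an unadjusted p under 0.05, as did 13.8% of all genes, DESeq2 called these 2 among 303 of all genes, against 64 by edgeR, and limma called 0.

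The median log2 fold change of the 10 members was -0.13 in LN against spleen and thymus (0.02 over all genes tested), with 5 members above 0 and 5 below. It was -0.06 in thymus against spleen (-0.01 over all genes), 0.17 in mLN against spleen (0 over all genes) and -0.15 in iLN against spleen (0.01 over all genes). The largest was that of iLN against thymus, -0.49 (0.03 over all genes), with 7 of 10 members below 0. In iLN against mLN the median was -0.30 (0 over all genes), with 8 of 10 below 0, and in mLN against thymus it was 0.03, as over all genes. The pairs share their samples and are not independent of each other.

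**Figure D3:**
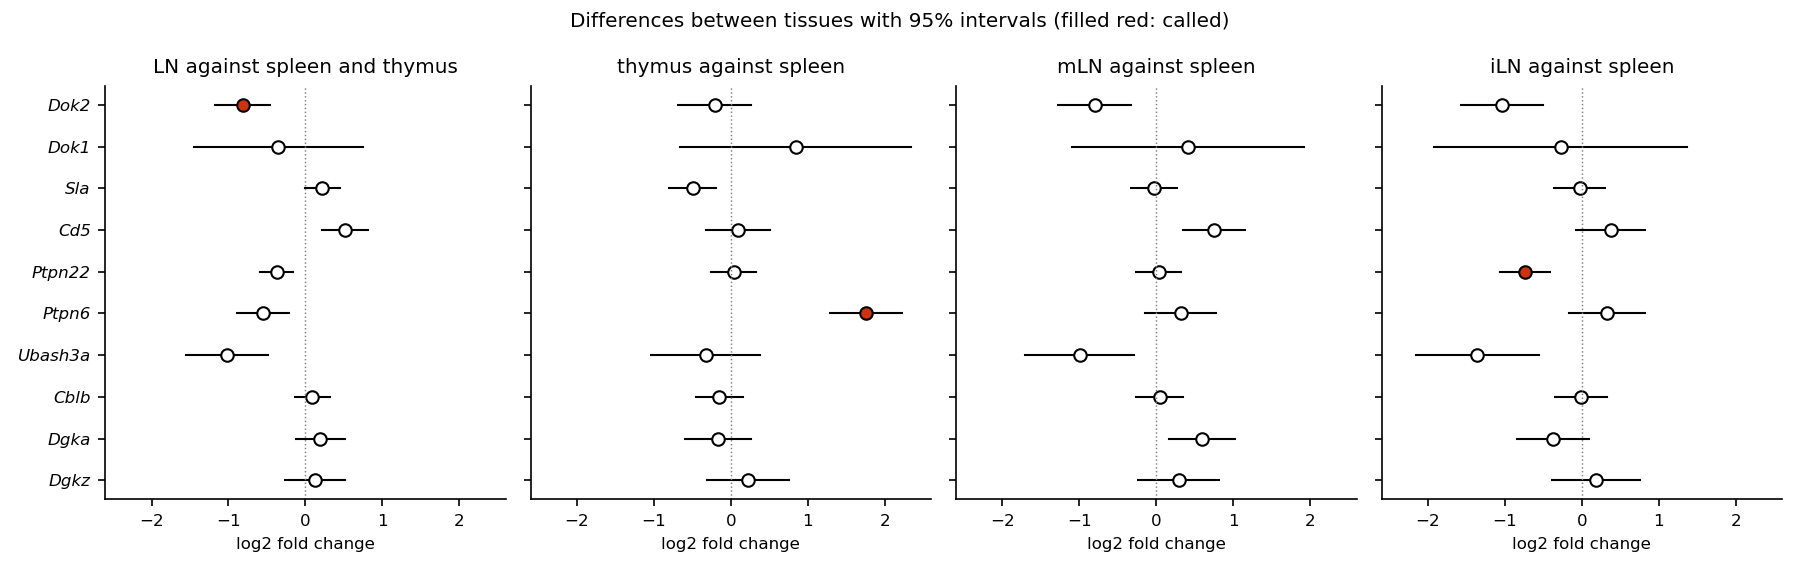
Log2 fold changes of the 10 members with 95% intervals in 4 comparisons, LN against spleen and thymus and each of thymus, mLN and iLN against spleen; filled red points were called. Ptpn6 in thymus (1.75), Dok2 in LN (-0.81) and Ptpn22 in iLN (-0.74) were called.

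Dok2 is a docking adaptor of hematopoietic cells that recruits the Ras GTPase-activating protein Rasa1 and so lowers Ras activity. Its gene (ENSMUSG00000022102) lies on the plus strand of chr14:70766036-70778495 (GRCm38, GENCODE M21). Its CPM, scaled by TMM as in the test, was 41.6, 47.04, 67.8 and 66.4 in thymus, 51.7, 64.0, 63.8 and 71.4 in spleen, 24.5, 26.7, 40.2 and 59.5 in mLN and 27.1, 44.4 and 27.9 in iLN. Taken over both batches, the LN and the spleen and thymus samples overlapped, since mLN replicate 4 was high and thymus replicates 1 and 2 were low. Within each batch they did not: LN samples held 24.5 to 27.1 CPM against 41.6 to 64.0 in the second batch, and 27.9 to 59.5 against 63.8 to 71.4 in the first. Dok2 fell in LN, with a log2 fold change of -0.81 (SE 0.17, 95% interval -1.17 to -0.46, adjusted p = 0.00827). The log2 fold change was -0.68 in the first batch alone (adjusted p = 0.127) and -0.95 in the second (adjusted p = 0.357), neither of them called.

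By mean CPM, Dok2 was ordered spleen (62.7, SD 8.14), thymus (55.7, SD 13.3), mLN (37.7, SD 16.1) and iLN (33.1, SD 9.79), and no neighbours in this order differed by a called change. In the pairs, the log2 fold change of Dok2 was -0.80 in mLN against spleen (adjusted p = 0.0959), -1.03 in iLN against spleen (adjusted p = 0.0241), -0.59 in mLN against thymus (adjusted p = 0.228) and -0.82 in iLN against thymus (adjusted p = 0.0858). The iLN and spleen samples did not overlap. The LN call rested close to the threshold: it was kept without mLN replicate 4 (adjusted p = 0.00379) or iLN replicate 3 (adjusted p = 0.00822) and lost without any 1 of the other 13 libraries, with an adjusted p of at most 0.025. It was also lost with no batch term (adjusted p = 0.0776), with replicate number as a block (log2 fold change -0.84, adjusted p = 0.0124) and with limma on log2 TPM (adjusted p = 0.0432). Of 12 settings other than leaving out a library, 7 kept the call, DESeq2 (adjusted p = 0.000108) among them. DESeq2 also called Dok2 in iLN against spleen (adjusted p = 0.00154) and over 4 tissues (adjusted p = 0.000767), where edgeR did not. NKT1 sums were lower in LN, as given above, and 4 of the 5 NKT17 genes were called higher there. The part of iNKT subsets in the Dok2 result was not tested.

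Dok1, the closest relative of Dok2 and likewise a Ras-lowering adaptor, had the fewest reads of the 10 members. Its CPM was 2.94 to 11.1 in thymus, 1.35 to 5.73 in spleen, 2.70 to 8.17 in mLN and 1.03 to 7.04 in iLN. Its tissue means, 6.40 in thymus (SD 3.42), 4.79 in mLN (SD 2.36), 3.73 in spleen (SD 1.81) and 3.17 in iLN (SD 3.36), lay within each other's spread. The log2 fold change in LN, -0.35, had a 95% interval of -1.45 to 0.75 (adjusted p = 0.799), which includes the value found for Dok2. Leaving out 1 library moved it to between -1.04 (without iLN replicate 3) and -0.09 (without thymus replicate 1). Dok2 was the more abundant of the 2 adaptors in every sample: the median TPM ratio of Dok2 over Dok1 was 12 in thymus, 19.3 in spleen, 8.97 in mLN and 19 in iLN, with a lowest single ratio of 4.66.

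Sla encodes the Src-like adaptor SLAP, which with Cbl directs TCR chains to degradation in thymocytes. Its CPM was 175.7 to 265 in thymus, 233 to 407 in spleen, 291 to 327 in mLN and 223 to 427 in iLN. By mean CPM the order was iLN (331, SD 102), spleen (319.8, SD 79.8), mLN (304, SD 15.8) and thymus (224, SD 41.6). The first 3 differed by less than their spread, with log2 fold changes of -0.03 in mLN against spleen and -0.03 in iLN against spleen. Thymus samples lay below all mLN samples. Sla had a log2 fold change of -0.50 in thymus against spleen (adjusted p = 0.0922), 0.47 in mLN against thymus (adjusted p = 0.109) and 0.47 in iLN against thymus (adjusted p = 0.124), none of them called. Its median TPM ratio over the related adaptor Sla2 was 3.32 in thymus, 6.5 in spleen, 5.87 in mLN and 5.86 in iLN.

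Cd5 is a surface receptor that dampens TCR signals and is set during thymic selection in step with their strength. Its CPM was 40.5, 47.04, 72.7 and 86.3 in thymus, 38.6, 56.8, 74.3 and 53.9 in spleen, 80.9, 66.6, 127.5 and 108 in mLN and 48.8, 108 and 88.6 in iLN. In the first batch every LN sample (88.6 to 127.5) stood above every spleen and thymus sample (53.9 to 86.3), whereas in the second batch the groups overlapped. The log2 fold change in LN was 0.52 (95% interval 0.21 to 0.82, adjusted p = 0.0487), 0.58 in the first batch alone and 0.39 in the second, and was not called. By mean CPM the order was mLN (95.7, SD 27.3), iLN (81.7, SD 30.1), thymus (61.6, SD 21.6) and spleen (55.9, SD 14.6), each neighbour within the spread of the next. The log2 fold change of mLN against spleen was 0.75 (adjusted p = 0.0681), which DESeq2 alone called. The TPM ratio of Cd5 over its relative Cd6 had medians of 0.983 in thymus, 0.883 in spleen, 1.21 in mLN and 1.46 in iLN.

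**Figure D4:**
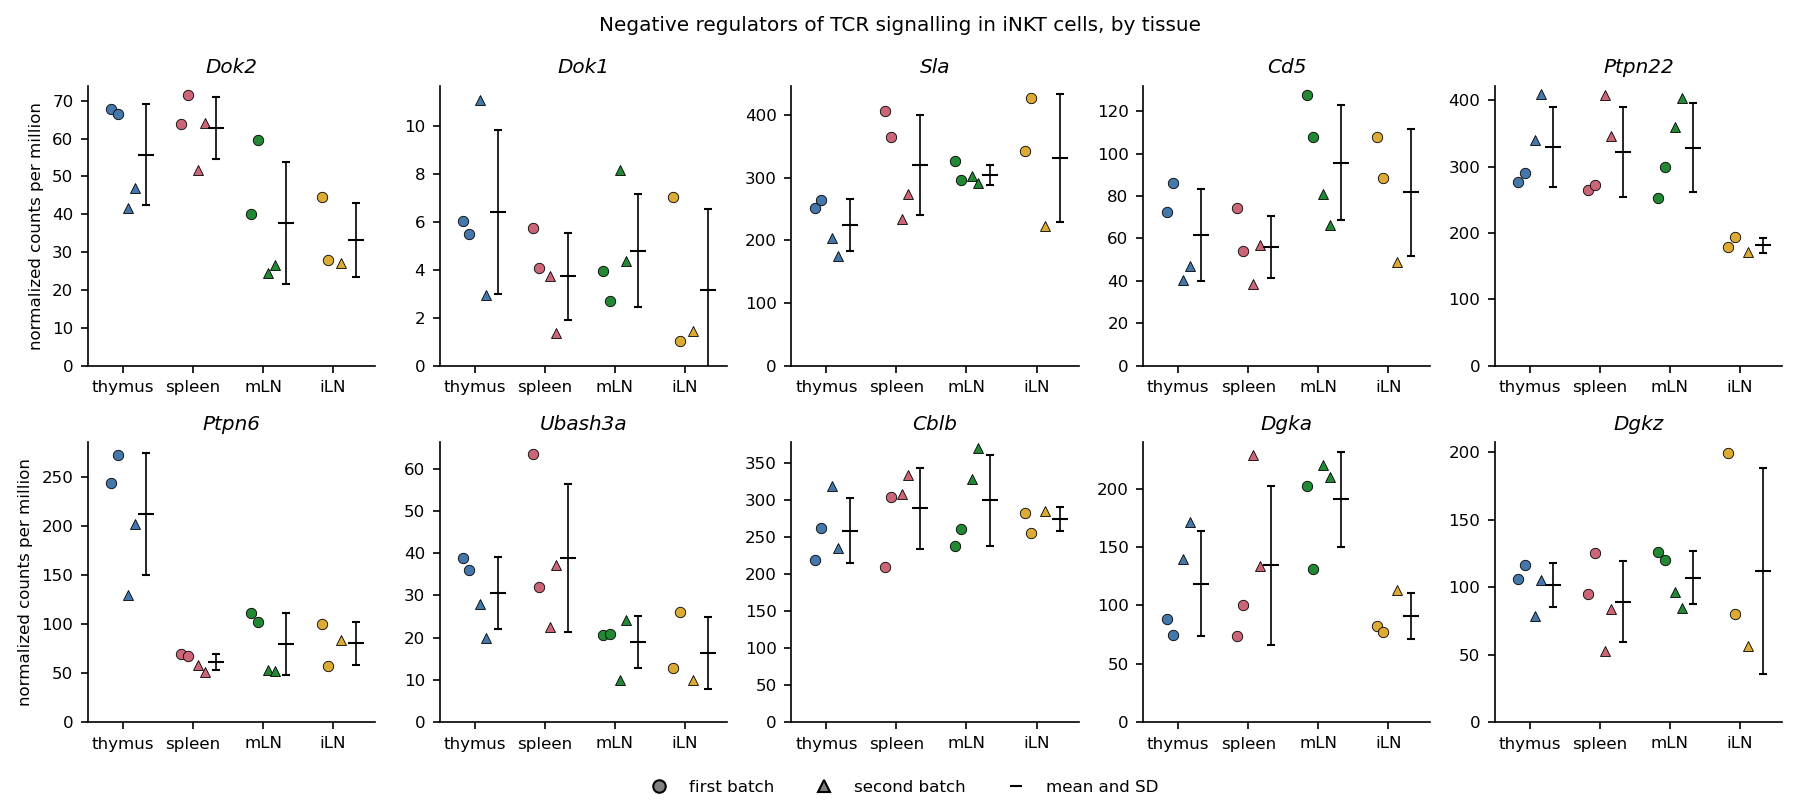
TMM-scaled CPM of each member in each sample, circles for the first batch and triangles for the second, with the mean and SD of each tissue as bars; the lower SD bar of Dok1 in iLN ends at the axis. Ptpn6 held 129 to 272 CPM in thymus and at most 111 elsewhere, and Ptpn22 held 171 to 194 in iLN and at least 252 elsewhere.

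Ptpn22 encodes the phosphatase PEP, which dephosphorylates Lck and Zap70 and is known for variants linked to autoimmunity. Its gene (ENSMUSG00000027843) lies on the plus strand of chr3:103859795-103912247. Its CPM was 340, 409, 277 and 291 in thymus, 408, 346, 264 and 271.5 in spleen, 360, 404, 252 and 299 in mLN and 171, 178 and 194 in iLN. In CPM every iLN sample was below every other sample. In TPM the groups overlapped, with iLN replicate 4 at 129.2, spleen replicate 3 at 106.2 and thymus replicate 3 at 126.5. On the CPM scale thymus, spleen and mLN were each higher in the second batch (340 to 409) than in the first (252 to 299), while iLN samples were alike in both. Ptpn22 fell in iLN, with a log2 fold change of -0.74 against spleen (SE 0.16, 95% interval -1.06 to -0.41, adjusted p = 0.00945) and -0.77 against thymus (SE 0.16, adjusted p = 0.00692). The value against mLN was of the same size, -0.77, with an adjusted p of 0.0151, and was not called.

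By mean CPM the order of Ptpn22 was thymus (329, SD 59.9), mLN (329, SD 66.8), spleen (322, SD 67.9) and iLN (181, SD 11.9), and the first 3 differed by at most 0.04 on the log2 scale. With mLN unlike iLN, LN together had a log2 fold change of -0.37 (95% interval -0.59 to -0.16, adjusted p = 0.0473), which was not called. Within batches, the log2 fold change of iLN was -0.54 against spleen and -0.62 against thymus in the first, and -1.16 and -1.13 in the second, where iLN had 1 sample that was assumed to vary like the others. None of these 4 was called. The call against spleen was kept without mLN replicate 2 (adjusted p = 0.00959) or iLN replicate 4 (adjusted p = 0.00738) and lost without any 1 of the other 13 libraries, at most 0.0783. That against thymus was lost without any 1 of 9 libraries (adjusted p at most 0.0568), and that over 4 tissues, 0.00923 with all libraries, was kept only without iLN replicate 4 (adjusted p = 0.00758). Over the other settings the call against spleen was kept in 6 of 13, with adjusted p from 0.00032 to 0.283, and that against thymus in 7 of 13, from 0.000109 to 0.231. Both counts include a looser threshold of 0.05 on the same p-values, which could not lose a call. With replicate number as a block all 3 calls were lost: iLN against spleen was -0.73 (adjusted p = 0.0166), iLN against thymus -0.77 (adjusted p = 0.0124), and the adjusted p over 4 tissues was 0.0173. NKT1 sums were lower in iLN (229 to 380 TPM) than in spleen (544 to 729). NKT17 sums were higher in iLN (107 to 292 TPM) than in spleen (1.86 to 16.2), thymus (2.53 to 13.6) and mLN (11.7 to 48.7). Of the 5 NKT17 genes, 4 were called higher in iLN against spleen. The part of iNKT subsets in the Ptpn22 result was not tested.

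Ptpn6 encodes SHP-1, a phosphatase with SH2 domains that is recruited to inhibitory receptors and lowers the activity of Lck and Zap70. Its gene (ENSMUSG00000004266) lies on the minus strand of chr6:124720707-124738714. Its CPM was 129, 201, 244 and 272 in thymus, 58.3, 51.1, 68.8 and 67.5 in spleen, 53.0, 52.4, 111 and 102 in mLN and 84.0, 99.4 and 56.8 in iLN. Every thymus sample was above every other sample, and the nearest were thymus replicate 1 and mLN replicate 3. Ptpn6 was higher in thymus than in spleen by a log2 fold change of 1.75 (fold 3.37, SE 0.22, 95% interval 1.28 to 2.22, adjusted p = 9.47e-05). It fell against thymus by 1.44 on the log2 scale in mLN (SE 0.22, adjusted p = 0.000551) and by 1.42 in iLN (SE 0.24, adjusted p = 0.00182).

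By mean CPM the order of Ptpn6 was thymus (211.7, SD 62.2), iLN (80.1, SD 21.6), mLN (79.7, SD 31.4) and spleen (61.4, SD 8.32), and the last 3 did not differ beyond their spread, with log2 fold changes of 0.31 in mLN and 0.33 in iLN against spleen. Because thymus is among the samples LN were set against, LN together had a value of -0.56 (adjusted p = 0.0601) while each LN site had a mean CPM above that of spleen. By mean TPM the order differed, at 69.3 in spleen (SD 43.99), 59.7 in iLN (SD 17.2) and 53.5 in mLN (SD 19.8). Within batches, the log2 fold change of thymus against spleen was 1.91 in the first (adjusted p = 0.00626) and 1.57 in the second (adjusted p = 0.0751), and that of mLN against thymus was -1.28 (adjusted p = 0.0361) and -1.63 (adjusted p = 0.0549). That of iLN against thymus was -1.74 in the first batch (adjusted p = 0.00574) and -0.97 in the second (adjusted p = 0.581). The calls of thymus against spleen, of mLN against thymus and over 4 tissues (adjusted p = 5.17e-05) were kept without any 1 of the 15 libraries. Thymus against spleen had a log2 fold change of 1.83 without spleen replicate 1, which had the highest B cell sum, and 1.65 without thymus replicate 2, which had the lowest total. NKT1 sums were also highest in thymus, Klrd1 and Rag1 were higher and Lyz2 and Il2ra lower there than in spleen, and the part of these in the Ptpn6 result was not tested. The call of iLN against thymus was lost without thymus replicate 4 (adjusted p = 0.0104), with no batch term (adjusted p = 0.0179) and in a fit to these 2 tissues alone (adjusted p = 0.0132).

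On the TPM scale thymus and spleen separated less cleanly. Ptpn6 had TPM of 163, 188, 127 and 159 in thymus, 74.3, 129, 29.6 and 44.3 in spleen, 35.7, 37.4, 73.5 and 67.6 in mLN and 60.2, 76.7 and 42.3 in iLN. Spleen replicate 2 thereby overlapped the thymus samples, and limma on log2 TPM gave a log2 fold change of 1.39 in thymus against spleen (adjusted p = 0.0988), which ended the call. No LN sample reached a thymus sample in TPM. Against thymus, limma gave -1.61 in mLN (adjusted p = 0.0381) and -1.39 in iLN (adjusted p = 0.107), neither of them called. An antisense gene, Gm20531, overlaps exons of Ptpn6. The strand of the library kit is not stated, and Gm20531 itself held 202 counts over the 15 samples against 8181 for Ptpn6. Within Ptpn22, the sense-intronic genes Gm15472 (2636 counts) and Gm43065 (4247 counts) overlap no exon.

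Ptpn22 and Ptpn6 are the 2 members called over 4 tissues together, and their promoters are shown for that reason. RefSeq promoters (GRCm38.p6, 250 bases before to 50 after the start) were held for 7 of the 10 members, and not for Dok1, Dok2 and Sla. The windows are chr3:103859545-103859844 (plus strand) for Ptpn22, chr3:103860027-103860326 (plus strand) for a second start of Ptpn22, and chr6:124738660-124738959 (minus strand) for Ptpn6, each written from 5′ to 3′ on the strand of the gene. Capitals mark the ETS motif GGAAGT and the RUNX motif TGTGGT on either strand, that is, also ACTTCC and ACCACA.
Ptpn22: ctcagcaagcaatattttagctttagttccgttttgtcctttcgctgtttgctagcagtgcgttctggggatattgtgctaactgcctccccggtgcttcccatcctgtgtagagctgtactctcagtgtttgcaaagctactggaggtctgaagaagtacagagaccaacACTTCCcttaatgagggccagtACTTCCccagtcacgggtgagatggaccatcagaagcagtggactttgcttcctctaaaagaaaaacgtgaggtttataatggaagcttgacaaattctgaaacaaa
Ptpn22 second start: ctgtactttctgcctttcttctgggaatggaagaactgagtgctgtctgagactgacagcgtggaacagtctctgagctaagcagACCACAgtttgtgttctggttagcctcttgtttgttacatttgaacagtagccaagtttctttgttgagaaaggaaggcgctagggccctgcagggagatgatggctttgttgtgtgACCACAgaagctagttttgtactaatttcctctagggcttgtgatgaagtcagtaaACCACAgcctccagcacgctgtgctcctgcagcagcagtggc
Ptpn6: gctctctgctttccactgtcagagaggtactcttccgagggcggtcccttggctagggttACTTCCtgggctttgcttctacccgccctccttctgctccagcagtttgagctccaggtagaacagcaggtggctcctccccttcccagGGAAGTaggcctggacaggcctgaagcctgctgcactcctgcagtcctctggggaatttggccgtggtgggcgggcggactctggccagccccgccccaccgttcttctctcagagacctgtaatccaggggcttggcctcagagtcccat

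The first Ptpn22 promoter held 2 ETS matches, the second 3 RUNX matches, and that of Ptpn6 2 ETS matches. Of 32851 RefSeq mouse promoters of this length, 23.8% held the ETS letters at least once and 4.18% held them 2 times or more, while 16.8% held the RUNX letters and 0.183% held them 3 times or more. The T-box letters GGTGTGA (3.98% of promoters) and the AP-1 letters TGANTCA (7.81%) were in none of the 3 windows. G and C made up 61.7% of the Ptpn6 promoter and 46% and 48.7% of those of Ptpn22. These matches describe the letters and no binding was measured.

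Ubash3a encodes STS-2, a weak phosphatase of the T cell ubiquitin ligand family that limits TCR signals together with its relative STS-1. Its CPM was 27.9, 19.9, 38.8 and 36.1 in thymus, 22.6, 37.1, 63.5 and 31.9 in spleen, 9.98, 24.1, 20.6 and 20.8 in mLN and 10.1, 12.7 and 26.0 in iLN. In the first batch every LN sample (12.7 to 26.0) was below every spleen and thymus sample (31.9 to 63.5), and in the second batch mLN replicate 2 overlapped them. Its log2 fold change in LN, -1.02, was larger in size than that of Dok2 but less precise (SE 0.25, 95% interval -1.55 to -0.48, adjusted p = 0.0279), and it was not called. It was -1.08 in the first batch and -1.04 in the second. Without mLN replicate 2 it was -1.22 and called (adjusted p = 0.0076), and DESeq2 called it with all libraries (adjusted p = 0.00277), over a range of settings from 0.00277 to 0.525.

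By mean CPM the order of Ubash3a was spleen (38.8, SD 17.6), thymus (30.7, SD 8.57), mLN (18.9, SD 6.13) and iLN (16.3, SD 8.54), with no called difference between neighbours. In TPM, iLN replicate 4 held 43.4 against at most 22.7 in any other sample, so that the tissue order in TPM differed from that in CPM. Against Ubash3b, which encodes STS-1, Ubash3a had median TPM ratios of 0.732 in thymus, 1.51 in spleen, 0.569 in mLN and 0.315 in iLN.

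Cblb encodes a ubiquitin ligase that sets the need for costimulation and restrains activated T cells. It was the steadiest member over the tissues, with 218 to 319 CPM in thymus, 209.6 to 334 in spleen, 238 to 369.8 in mLN and 255 to 285 in iLN. The means, 299 in mLN (SD 60.9), 289 in spleen (SD 54.4), 274 in iLN (SD 16.5) and 259 in thymus (SD 44.1), lay within each other's spread. Its log2 fold change in LN was 0.09 with a 95% interval of -0.14 to 0.32 (adjusted p = 0.747), an interval that holds no change as large as the fold threshold of 1.5 (0.585 on this scale). The same held of the interval of each pair, the widest bounds being -0.46 in thymus against spleen and 0.50 in mLN against thymus. Its TPM was below that of its relative Cbl in most samples, with median ratios of 0.649 in thymus, 0.669 in spleen, 0.852 in mLN and 0.742 in iLN and a highest single ratio of 1.04.

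Dgka and Dgkz encode diacylglycerol kinases, which turn diacylglycerol into phosphatidic acid and so end the activation of Ras by Rasgrp1. The CPM of Dgka was 140.1, 171, 88.4 and 74.8 in thymus, 229, 133, 73.5 and 101 in spleen, 220.3, 210.2, 202 and 131 in mLN and 114, 82.6 and 76.8 in iLN. All 4 mLN samples were above all 3 iLN samples, while the thymus and spleen samples spanned much of the range, high in the second batch and low in the first. By mean CPM the order was mLN (191, SD 40.8), spleen (134, SD 68.0), thymus (119, SD 45.0) and iLN (91.0, SD 19.8). The 2 LN sites thus stood at the ends of the order, and LN together had a log2 fold change of 0.19 (adjusted p = 0.578), 0.44 in the first batch and -0.11 in the second.

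The log2 fold change of Dgka in iLN against mLN was -0.96 (SE 0.23, 95% interval -1.44 to -0.49, adjusted p = 0.0391), -1.07 in the first batch and -0.94 in the second, and was not called by edgeR, though DESeq2 called it (adjusted p = 0.00423) over a range of settings from 0.0025 to 0.523. With the replicate block it was -0.92 (adjusted p = 0.07). In mLN it was 0.59 against spleen (adjusted p = 0.205) and 0.76 against thymus (adjusted p = 0.0541). Over 4 tissues its adjusted p was 0.0258, and 0.00805 without spleen replicate 1, the library with the highest B cell sum, where Dgka was then called. The Pmel gene overlaps exons of Dgka on the other strand and held 118 counts over the 15 samples against 12272.

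Dgkz did not separate the tissues. Its CPM was 78.6 to 116 in thymus, 52.6 to 125.5 in spleen, 84.6 to 126 in mLN and 56.5, 199 and 80.1 in iLN, where replicate 3 was the highest of all 15 samples. Mean CPM was 112 in iLN (SD 76.6), 107 in mLN (SD 19.7), 102 in thymus (SD 16.1) and 89.3 in spleen (SD 30.1), each within the spread of the others. Its log2 fold change in LN was 0.13 (95% interval -0.27 to 0.52, adjusted p = 0.80), 0.23 in the first batch, -0.15 in the second and -0.15 without iLN replicate 3. Gm9821, on the other strand, overlaps exons of Dgkz and held 798 counts against 7946. The TPM ratio of Dgka over Dgkz had medians of 0.904 in thymus, 0.808 in spleen, 1.3 in mLN and 0.708 in iLN, with single values from 0.218 to 2.78.

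Other brakes on TCR signalling were read from a list of 26 genes in 5 groups: further adaptors and receptors, kinases and phosphatases, lipid enzymes, ubiquitin ligases and Ras GTPase-activating proteins. Dok3 did not pass the filter on low counts, which left 25. In LN against spleen and thymus 1 of 25 was called, Nedd4, a ubiquitin ligase, which is 4% of the list beside 1.72% of all genes. Its CPM was 257, 238, 202 and 202 in thymus, 248, 274, 194 and 206 in spleen, 187, 139, 109 and 124 in mLN and 139.8, 128 and 117 in iLN. No LN sample reached a spleen or thymus sample, and Nedd4 fell in LN by 0.74 on the log2 scale (SE 0.10, adjusted p = 0.000165). Within batches LN samples held 139 to 187 CPM against 238 to 274 in the second and 109 to 128 against 194 to 206 in the first. Of the pairs, Nedd4 was lower in mLN and in iLN, each against spleen and against thymus.

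Over 4 tissues together 5 of these 25 genes were called, 20% of the list beside 3.38% of all genes. Nedd4 (adjusted p = 0.00057) followed the split of LN from the rest, and the other 4 did not. Inpp4b, a lipid phosphatase, had its highest CPM in thymus (939.6 to 1261) and mLN (832 to 1154), with 517.5 to 789 in spleen and 413 to 808 in iLN (adjusted p = 0.000742). Pag1, a membrane adaptor that brings Csk to Lck, held 349.7 to 529 CPM in thymus, 392 to 531 in iLN and 184.7 to 292.7 in spleen. In mLN it held 191.3 to 264.5 CPM except in replicate 2, which at 499.7 overlapped thymus and iLN. Pag1 rose in iLN against spleen by a log2 fold change of 0.98 (adjusted p = 0.00334). Rasa1, the GTPase-activating protein that Dok adaptors recruit, was highest in mLN (167.7 to 221) and rose there against spleen by 0.87 on the log2 scale (adjusted p = 0.00638). Rasa3 was higher in thymus (67.6 to 80.9) than in mLN (31.4 to 50.6), with a log2 fold change of -0.98 in mLN against thymus (adjusted p = 0.00867). The median log2 fold change of the 25 genes in LN against spleen and thymus was -0.09, with 11 above 0 and 14 below. The count over 4 tissues was 3 without thymus replicate 2, spleen replicate 2, spleen replicate 3 or mLN replicate 4, 2 without spleen replicate 4, and 0 with no batch term, with limma on log2 TPM and in each batch alone. The count in LN was 2 without iLN replicate 2, and 0 with limma and in each batch alone.

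The activating side of the pathway was read from 17 genes of proximal TCR signalling, all of which were tested: the CD3 chains, kinases, adaptors and their effectors. LN against spleen and thymus called 1 of 17 (5.88%, beside 1.72% of all genes), Themis, an adaptor that sets TCR signal strength in thymocytes. Its CPM was 16.8, 28.7, 13.5 and 17.3 in thymus, 104, 228, 139.5 and 146 in spleen, 193, 246, 172.5 and 191 in mLN and 105, 139 and 85.7 in iLN. All thymus samples were below all others, and the rise of LN against spleen and thymus (fold 2.84, adjusted p = 4.94e-05) came with log2 fold changes of 0.38 in mLN against spleen (adjusted p = 0.561) and -0.44 in iLN against spleen (adjusted p = 0.413). Thymus against spleen called 2 of 17 (11.8%, beside 1.32% of all genes), both lower in thymus: Themis (-3.08, adjusted p = 5.57e-07) and Rasgrp1, the activator of Ras that diacylglycerol switches on (-1.03, adjusted p = 0.000203). Ptpn6 was thus higher in the same 4 thymus samples in which Themis (13.5 to 28.7 CPM) and Rasgrp1 (155 to 255 CPM) were lower than in any other sample.

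Over 4 tissues 3 of the 17 were called (17.6%, beside 3.38% of all genes), Themis (adjusted p = 5.86e-07), Rasgrp1 (adjusted p = 0.000257) and Txk (adjusted p = 0.00462). Txk, a Tec family kinase, held 326 to 662 CPM in spleen against 223 to 247 in iLN, and its log2 fold change in iLN against spleen was -0.90 (adjusted p = 0.00641). The median log2 fold change of the 17 genes in LN against spleen and thymus was 0.19, with 10 above 0 and 7 below. The other 14 genes, among them the CD3 chains, Lck, Zap70 and Lat, were not called over 4 tissues together. The count over 4 tissues was 1 with no batch term, with limma on log2 TPM and in the first batch alone, and 0 in the second batch alone. The count in LN against spleen and thymus was 3 at an adjusted p under 0.05 with no fold threshold and 0 in the second batch alone.

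For the 2 members called over 4 tissues, the genes most alike in pattern were found by Pearson r of log2 CPM over the 15 samples, with batch removed, among 8724 genes. They are given as a description. Most like Ptpn6 were Cdh1 (r = 0.967), Ugcg (r = 0.951) and Tlr7 (r = 0.92). Cdh1, which encodes E-cadherin, held 80.0, 82.3, 100.3 and 105.9 CPM in thymus and 0 to 4.24 in every other sample. Ugcg, which encodes the enzyme that makes glucosylceramide, held 1089 to 1217 CPM in thymus and 369 to 691 elsewhere. Tlr7, which encodes a receptor for single-stranded RNA, held 13.8 to 53.7 CPM in thymus and 2.85 to 15.6 elsewhere, so that its groups overlapped.

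**Figure D5:**
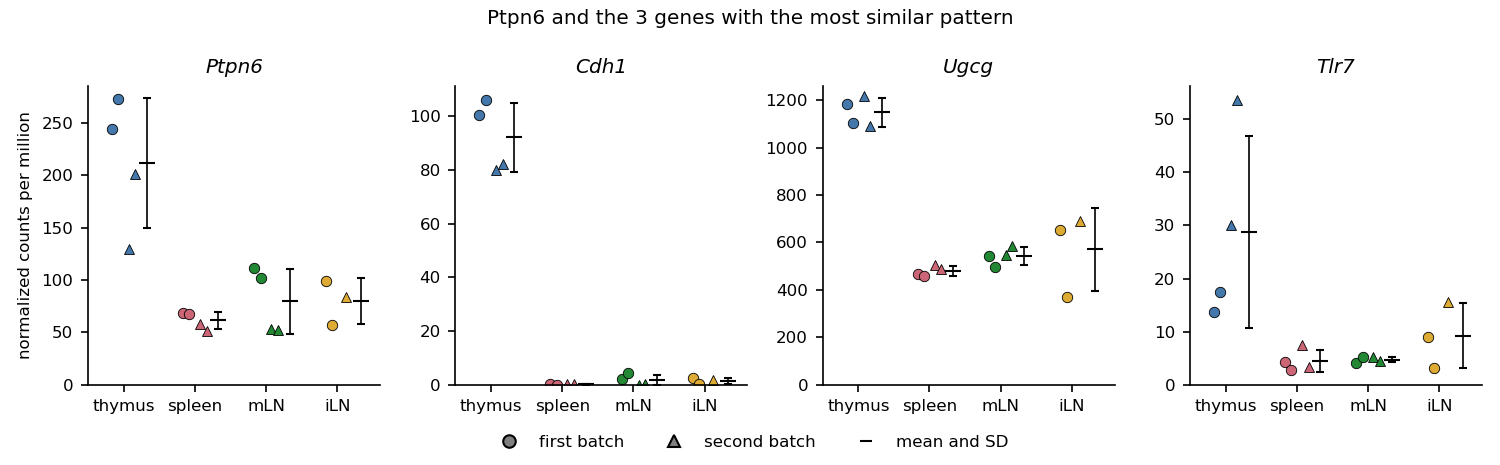
TMM-scaled CPM of Ptpn6 and of the 3 genes most like it in pattern, Cdh1, Ugcg and Tlr7, in each sample by tissue. Each was highest in thymus, with Cdh1 at 80.0 to 105.9 there and at most 4.24 elsewhere.

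Most like Ptpn22 were Lmbr1l (r = 0.921), Nkiras2 (r = 0.917) and Rnf5 (r = 0.908). Rnf5, which encodes a ubiquitin ligase of the endoplasmic reticulum, held 2.15, 8.94 and 10.1 CPM in iLN and 19.6 to 46.3 in the other tissues. Lmbr1l held 3.23 to 12.8 CPM in iLN and 13.5 to 26.4 elsewhere, and Nkiras2 0.538 to 3.08 in iLN and 3.19 to 11.03 elsewhere. As with Ptpn22, no iLN sample of these 3 genes reached a sample of another tissue, the pattern they were chosen for. Rnf5 was called over 4 tissues together (adjusted p = 0.00515), and Lmbr1l (adjusted p = 0.209) and Nkiras2 (adjusted p = 0.185) were not.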

How the data were processed

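RNA from 15 samples of sorted iNKT cells was sequenced (NuGEN Ovation Ultralow libraries). The authors trimmed reads with cutadapt 1.7.1 and quantified genes on GRCm38 with RSEM 1.2.31 and Bowtie2 2.2.9. The deposited expected count and TPM of each gene were read from their tables. Expected counts were rounded, genes were filtered with filterByExpr (13600 kept), and edgeR 4.0.16 (R 4.3.3) fitted tissue and batch with TMM factors (0.755 to 1.18) and a robust quasi-likelihood test. P-values were adjusted over all genes tested by Benjamini-Hochberg. Alternatives used DESeq2 1.42.0, limma 3.58.1 on log2(TPM + 1), other filters and scaling, no batch term, a replicate block, each batch alone and each library left out. Members and lists were chosen with earlier results of these data known. Named were all members, the genes of the other lists called in LN or over 4 tissues, each marker list's most abundant gene, and the 3 genes most alike in pattern to each member called over 4 tissues (log2 CPM with a prior count of 2, mean of at least 5 CPM). The NKT17 list was an exception, with none of its genes named. Gene positions were taken from GENCODE M21.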

Additional observations from a re-analysis of the deposited data

Results flagged for a closer look

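The changes of Ptpn22 and Dgka against spleen differed between the 2 LN sites at an adjusted p under 0.05, by the edgeR test of iLN against mLN. For Ptpn22 the difference, iLN minus mLN, was -0.77 on the log2 scale (adjusted p = 0.0151): it was 0.03 against spleen in mLN and -0.74 in iLN. For Dgka the difference was -0.96 (adjusted p = 0.0391): it was 0.59 against spleen in mLN and -0.38 in iLN. Neither passed the threshold of 0.01. With replicate as a block, Ptpn22 was -0.76 (adjusted p = 0.0283) and Dgka was -0.92 (adjusted p = 0.07), no longer under 0.05.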

How the results depend on the processing

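Of 745 single-gene log2 fold changes recomputed over 27 results, 662 kept their direction and side of the threshold, 63 lost a call, 17 gained a call and 3 reversed. The 745 are not the base for the 63, since most of the 27 results had no call to lose. Those with a call were Dok2 in LN, Ptpn6 in thymus against spleen and in each LN site against thymus, and Ptpn22 in iLN against spleen and against thymus. Leaving out 1 library lost the call of Dok2 in 13 of 15 fits and that of Ptpn6 in thymus against spleen in 0. The reversals were Dgka in LN in the second batch alone (-0.11) and Dgkz in LN in the second batch alone (-0.15) and without iLN replicate 3 (-0.15), the lowest of a leave-one-out range of -0.154 to 0.253. Where no construction of the setting is named as the reason, the cause was not tested.

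Members called were counted again under each setting. In LN against spleen and thymus the count of 1 became 2 with DESeq2 or with no filter on low counts, 0 with no batch term, 0 with the replicate block, 0 with limma on TPM, 4 at an adjusted p under 0.05 with no fold threshold, and 0 in the first and 0 in the second batch alone, which hold fewer samples. In thymus against spleen 1 became 0 with limma and 0 in the second batch. In mLN against spleen 0 became 1 with DESeq2. In iLN against spleen 1 became 3 with DESeq2, 2 at 0.05, and 0 with RLE scaling, no batch term, the replicate block, only the groups compared, limma and each batch alone. In mLN against thymus 1 became 0 with limma and in each batch alone. In iLN against thymus 2 became 1 with the replicate block and in the first batch, and 0 with no batch term, only the groups compared, limma and the second batch. In iLN against mLN 0 became 2 with DESeq2, with no filter and at 0.05, and 1 with at least 10 counts in every sample and with libraries thinned to the smallest total. Over 4 tissues 2 became 5 with DESeq2, 4 at 0.05, 3 with no filter, 1 with RLE, no batch term, the replicate block and the first batch, and 0 with limma and the second batch. A fit to only the groups compared was made for pairs alone. Counts among all genes moved as well. Their lowest and highest were 2 and 579 around 234 in LN, 27 and 407 around 179 in thymus against spleen, 0 and 273 around 89 in mLN against spleen, 4 and 594 around 211 in iLN against spleen, 31 and 435 around 217 in mLN against thymus, 7 and 504 around 204 in iLN against thymus, 3 and 303 around 64 in iLN against mLN, and 41 and 1134 around 459 over 4 tissues. Each lowest came from a batch alone. The highest came from DESeq2 in thymus and iLN against spleen, iLN against thymus and iLN against mLN, from no filter in mLN against spleen, mLN against thymus and over 4 tissues, and from 0.05 in LN. The count of all genes is not given beside each member count above. A rise or fall of the member count with a setting is therefore not read as particular to the members.

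Leaving out each library in turn gave 0 to 1 members called in LN against spleen and thymus, 1 to 1 in thymus against spleen, 0 to 0 in mLN against spleen, 0 to 1 in iLN against spleen, 1 to 1 in mLN against thymus, 0 to 2 in iLN against thymus, 0 to 0 in iLN against mLN and 1 to 2 over 4 tissues. Of the 10 members, 6 had the same order of tissues by mean TPM as by mean CPM; Ptpn22, Ptpn6, Ubash3a and Sla did not. With the replicate block, Ptpn6 in thymus against spleen was 1.74 (adjusted p = 0.000242), Dok2 in LN -0.84 (adjusted p = 0.0124) and Ptpn22 in iLN against spleen -0.73 (adjusted p = 0.0166). Samples of 1 replicate number correlated with a mean r of 0.122 after tissue was removed, over 21 pairs, against 0.107 for other pairs of the same batch, and whether numbers mark pairs was not settled. Dok1 rested on the fewest counts, with 4 in its lowest sample.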

Other observations

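With batch removed from log2 CPM, keeping tissue, Ptpn6 and Sla ran opposite to each other. Of the 45 pairs of members, they had the most negative Pearson r of these batch-removed values over the 15 samples, -0.933. They were chosen for this after the values were seen, and the r of log2 CPM with batch left in is not given. The r, again with batch removed, was -0.848 over the 11 samples from spleen, mLN and iLN. It was -0.937 within the first batch and -0.931 within the second, and -0.863 with tissue removed as well as batch. These values are a description of samples that share their libraries' scaling, without a test.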
